A study of Mus musculus with 11 samples.

Results

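A set of 10 genes of cardiac calcium handling were followed through hearts of lean mice, obese mice and obese mice given a senolytic drug cocktail. The members were chosen by gene symbol: Atp2a2 and Pln of calcium uptake, Ryr2, Trdn, Asph and Sri of calcium release, Casq2 and Hrc of calcium storage, and Cacna1c and Slc8a1 of the cell surface. All 10 had a row among the 55487 gene identifiers of the deposited count table, and all 10 passed the filter on low counts that left 23779 genes. The hearts came from female mice of the inbred strain C57BL/6NTac, aged 8 weeks at the start of 24 weeks of feeding. The control-diet group (4 libraries) ate a diet with 10.4% of its energy from fat. The obese group (4 libraries) ate an obesogenic diet that paired sweetened condensed milk with a chow in which fat supplied 60.3% of the energy, and received the vehicle, 10% PEG400, by gavage from week 16. The treated group (3 libraries) shared that diet and received dasatinib, a tyrosine kinase inhibitor, at 5 mg/kg and quercetin, a plant flavonoid, at 50 mg/kg in the same vehicle. The sources used here do not give whether control-diet mice were gavaged, so that diet and gavage cannot be told apart. They also do not give which chambers of the heart were taken, or that each library was a separate animal. P-values therefore reflect how libraries varied, and part of that variation may be technical.

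In a heart muscle cell, each beat starts when calcium enters through L-type channels of the surface membrane and opens ryanodine receptors of the sarcoplasmic reticulum, the calcium store. Contraction ends when the pump SERCA2, restrained by phospholamban, returns calcium to the store and the sodium-calcium exchanger carries the remainder out of the cell. Inside the store, calcium is bound by calsequestrin and the histidine-rich calcium-binding protein, and triadin and junctin tether calsequestrin to the release channel.

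The start regions of 4 genes are shown because their transcripts differed in behaviour: Pln and Sri fell with the obesogenic diet, while Ryr2 and Casq2 had differences near 0. Each sequence is the 250 bases before the RefSeq start on GRCm38.p6, read 5′ to 3′ along the gene's strand. The windows were chr10:53337436-53337685 on the plus strand for Pln, chr5:8045828-8046077 on the plus strand for Sri, chr13:12106946-12107195 on the minus strand for Ryr2 and chr3:102086165-102086414 on the plus strand for Casq2. RefSeq windows were matched for 7 of the 10 members, and none was printed for Atp2a2, Trdn or Asph. Capitals mark letters that match 1 of 6 motifs searched on both strands: the E-box CANNTG, the CCAAT box, the TATA box TATAAA, the estrogen-related receptor half-site AAGGTCA, the MEF2 site and the CArG box.
Pln: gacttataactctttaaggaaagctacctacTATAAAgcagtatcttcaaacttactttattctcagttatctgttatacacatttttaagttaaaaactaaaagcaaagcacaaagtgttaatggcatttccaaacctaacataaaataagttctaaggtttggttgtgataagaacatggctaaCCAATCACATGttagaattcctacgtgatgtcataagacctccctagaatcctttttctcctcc
Sri: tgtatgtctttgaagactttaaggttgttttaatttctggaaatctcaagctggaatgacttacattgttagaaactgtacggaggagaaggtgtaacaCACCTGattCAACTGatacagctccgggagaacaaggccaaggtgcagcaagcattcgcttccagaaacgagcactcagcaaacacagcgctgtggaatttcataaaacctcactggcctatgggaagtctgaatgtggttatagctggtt
Ryr2: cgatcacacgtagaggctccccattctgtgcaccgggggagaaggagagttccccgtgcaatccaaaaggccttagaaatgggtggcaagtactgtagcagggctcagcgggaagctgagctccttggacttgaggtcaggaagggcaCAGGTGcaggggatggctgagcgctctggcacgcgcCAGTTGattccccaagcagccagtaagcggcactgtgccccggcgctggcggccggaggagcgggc
Casq2: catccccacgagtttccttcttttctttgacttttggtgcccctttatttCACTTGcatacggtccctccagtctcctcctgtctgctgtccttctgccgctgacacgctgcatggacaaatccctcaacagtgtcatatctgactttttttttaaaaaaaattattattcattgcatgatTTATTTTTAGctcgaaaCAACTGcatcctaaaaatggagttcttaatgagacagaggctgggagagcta
Counting the base before the start as -1, the Pln window held a TATA box whose first base lay at -219, a CCAAT box at -64 and, directly after it, an E-box at -59. The Sri window held E-boxes at -151 and -142, and the Ryr2 window held E-boxes at -102 and -66. The Casq2 window held a MEF2 site at -69, within 20 bases of an E-box at -52, and another E-box at -200. Over 32851 RefSeq windows of the same length, 66.2% held an E-box, 33.8% a CCAAT box, 12.4% a TATA box, 4.08% the half-site, 2.92% a MEF2 site and 1.47% a CArG box. These windows also differed in base composition, with a GC content of 32.8% for Pln, 43.6% for Sri, 63.2% for Ryr2 and 41.6% for Casq2. A match is a match of letters only, and binding was not measured.

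Library totals ran from 73.1 to 103.3 M counts on the control diet, from 52.7 to 67.2 M in obese and from 64.2 to 72.3 M in treated libraries, so every control library was deeper than every other library. At this depth the least abundant member, Sri, still had 1134 to 2396 counts per library. Ventricular and working cardiomyocyte markers summed to 27493 to 39632 CPM (counts relative to a library size scaled by TMM, a trimmed mean of gene-wise ratios between libraries) in control, 21628 to 32314 in obese and 27031 to 32651 in treated libraries, and 4 of these 8 markers fell with the obesogenic diet. Of 10 skeletal muscle markers, 8 averaged under 1 CPM and 1 was at 0 in all libraries. The 10 atrial markers summed to 58.5 to 126 CPM in control libraries but to 2296 in obese 3, 3004 in treated 2 and 5951 in treated 3, so results are also given without these 3 libraries where they change. Genes annotated as sense-intronic or TEC (a class of loci that lack experimental proof), called the intronic share here, took 0.286% to 0.590% of counts in control, 0.663% to 0.811% in obese and 0.509% to 0.671% in treated libraries. Mitochondrial genes took 28.2% to 32.3% of counts in control, 21.4% to 24.5% in obese and 17.8% to 22.4% in treated libraries, so control libraries stood apart here too. With the diet, 4 of 5 adipocyte markers rose, though 4 of the 5 averaged under 1 CPM. Their sum was 0.255 to 0.453 CPM in control and 0.394, 8.83, 8.10 and 1.33 CPM in obese libraries 1 to 4, so obese 1 lay within the control range. Of 5 endothelial markers 2 fell with the diet, from a sum of 759 to 889 CPM in control to 585 to 732 CPM in obese libraries. The part of these measures in the results was not tested. In bulk tissue, fewer cells of a type and less RNA per cell cannot be told apart.

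The 2 genes of calcium uptake had the lowest fitted differences of the set in obese hearts. The pump gene Atp2a2 (ENSMUSG00000029467, GRCm38 chr5:122453513-122502225, minus strand), which encodes SERCA2, stood at 12749, 7738, 10651 and 12800 CPM in control libraries 1 to 4. In obese libraries 1 to 4 it stood at 6616, 4374, 6380 and 7905 CPM. The treated libraries 1 to 3 had 7491, 8792 and 7581 CPM. Every control library except control 2 lay above every obese library, and control 2 lay just under obese 4. The mean fell from 10984 ± 2385 CPM (SD, n = 4) on the control diet to 6319 ± 1460 (SD, n = 4) in obese hearts, a 1.74-fold change (edgeR log2 fold change -0.80, SE 0.21, adjusted p = 0.0117). The log2 fold change of Atp2a2 stayed between -0.96 and -0.66 with each of the 11 libraries left out in turn, with an adjusted p of at most 0.0376 in edgeR.

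Pln (ENSMUSG00000038583, chr10:53337667-53345987, plus strand) encodes phospholamban, the small membrane protein that inhibits the pump until it is phosphorylated. Its control libraries 1 to 4 held 4105, 2449, 3654 and 4426 CPM. Its obese libraries 1 to 4 held 1815, 1591, 1494 and 2582 CPM, and its treated libraries 1 to 3 held 2057, 2318 and 1366 CPM. The same pair of libraries overlapped as for Atp2a2, control 2 lying under obese 4. Pln fell from 3659 ± 866 CPM (SD, n = 4) to 1870 ± 493 (SD, n = 4) with the diet, 1.96-fold (log2 fold change -0.97, SE 0.23, edgeR adjusted p = 0.00830). With each library left out, the value lay between -1.18 and -0.87 and the adjusted p in edgeR was at most 0.0282. Without obese 3, treated 2 and treated 3, the diet differences were -0.87 for Pln (edgeR adjusted p = 0.0257) and -0.80 for Atp2a2 (edgeR adjusted p = 0.0441).

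**Figure D1:**
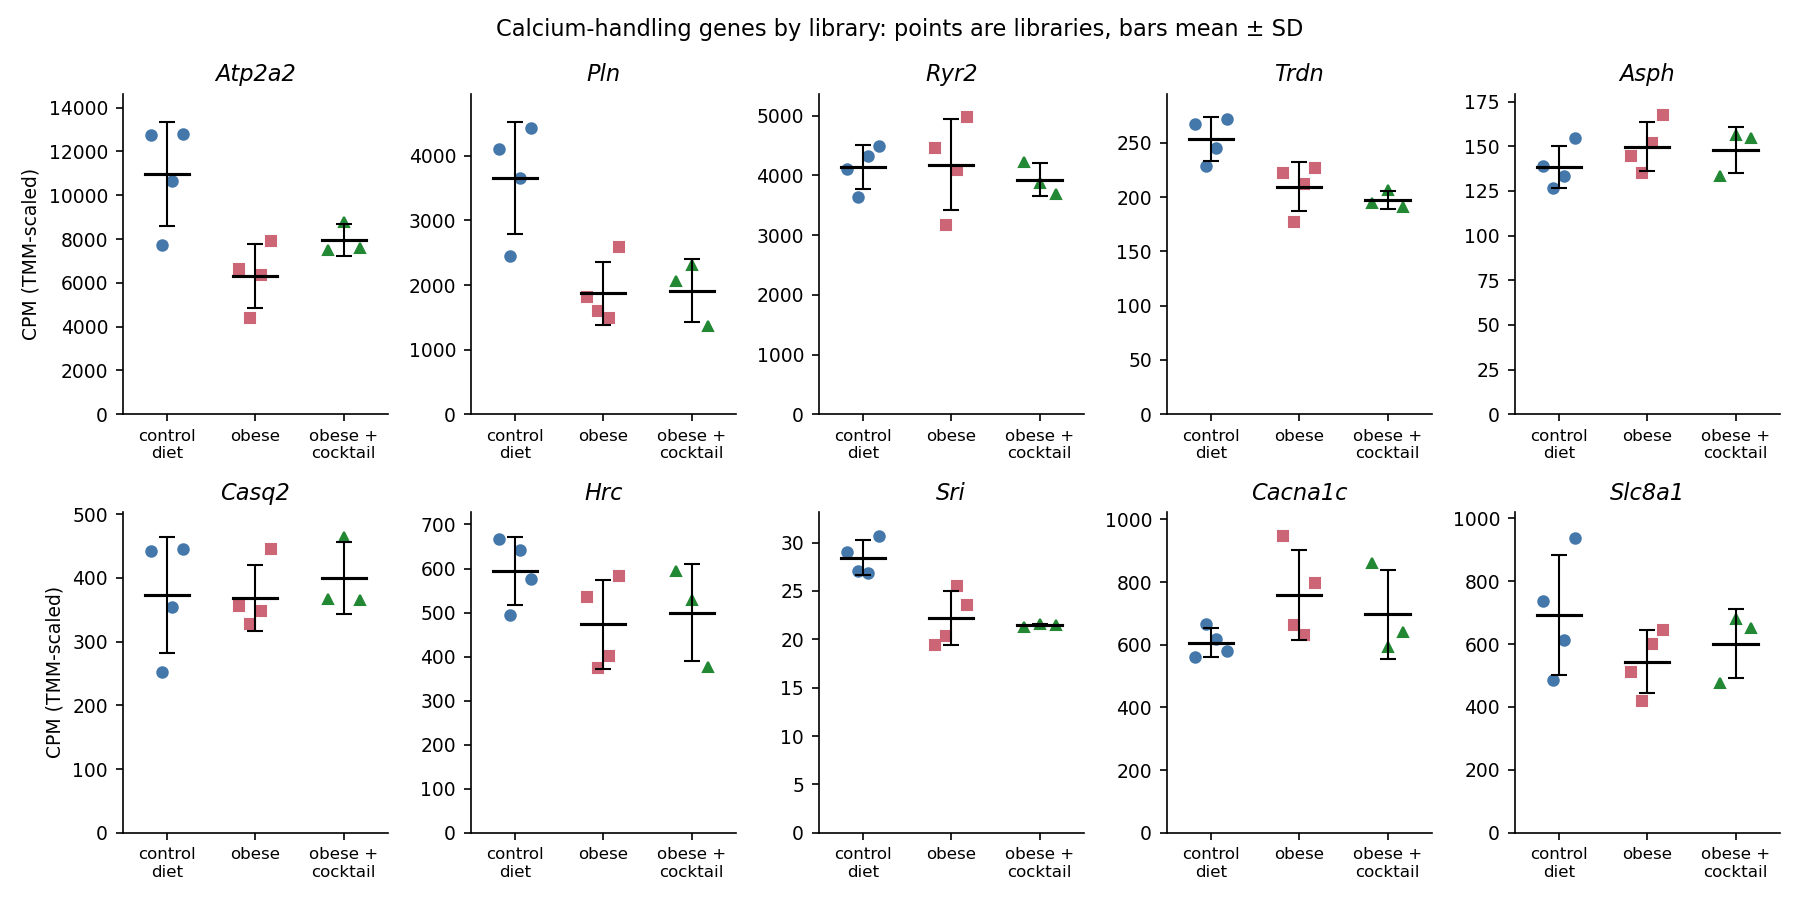
Each panel plots CPM with TMM-scaled library size (vertical axis, from 0) for 1 gene by group (control diet, 4 libraries; obese, 4; obese with cocktail, 3); points are libraries, horizontal bars are means and whiskers are the SD. Atp2a2 and Pln sit lower in obese than in control libraries except for control 2, at 7738 and 2449 CPM, while the groups of Ryr2 and Casq2 cover each other.

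Among the 4 control libraries, both genes ranked in the reverse order of the intronic share. Among the obese libraries neither did: obese 2, with a share of 0.706%, had less Atp2a2 (4374 CPM) than obese 3 (6380 CPM), with 0.811%. It also had less Pln (1591 CPM) than obese 1 (1815 CPM), with 0.746%. Among the treated libraries Pln kept the reverse order and Atp2a2 did not. Control 2 had the highest intronic share of the control libraries, 0.590%, and obese 4 the lowest of the obese libraries, 0.663%. Control and obese libraries did not overlap in this share, so that diet and intronic share cannot be told apart by these 8 libraries alone. With the intronic share as a covariate in edgeR, the diet difference was -0.09 for Atp2a2 (adjusted p = 0.935) and 0.10 for Pln (adjusted p = 0.909), and 0 of the 10 members passed, with 1 at an unadjusted p under 0.05. That fit called 35 genes higher and 86 lower of all genes tested.

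**Figure D2:**
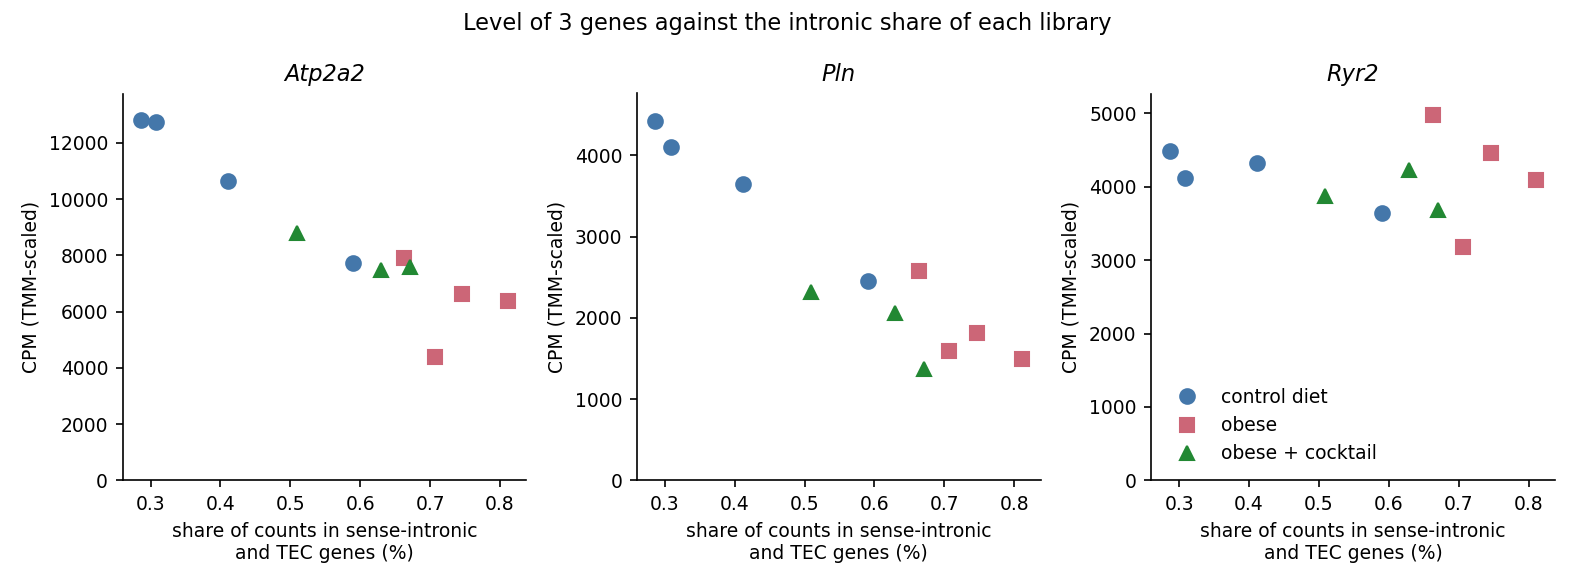
CPM of Atp2a2, Pln and Ryr2 (vertical axes, from 0) against the percentage of each library's counts in sense-intronic and TEC genes (horizontal axis); each point is 1 of 11 libraries, with circles for control diet, squares for obese and triangles for cocktail-treated obese. Atp2a2 and Pln descend from the control libraries with a share of 0.286% to the obese libraries at 0.663% and above, while Ryr2 shows no such slope.

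The release channel did not follow the pump. Ryr2 (ENSMUSG00000021313, chr13:11553102-12106945, minus strand) encodes the cardiac ryanodine receptor, through which the store empties. It had 4116, 3642, 4320 and 4491 CPM in control libraries 1 to 4. Obese libraries 1 to 4 had 4463, 3173, 4089 and 4978 CPM, and treated libraries 1 to 3 had 4226, 3871 and 3683. The obese libraries reached both above and below the control libraries. The diet difference of Ryr2 was 0.01 on the log2 scale (95% confidence interval -0.32 to 0.35, edgeR adjusted p = 0.962). That interval excludes a fall as large as the fitted one of Atp2a2.

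Trdn (ENSMUSG00000019787, chr10:33080554-33476709, plus strand) encodes triadin, which anchors calsequestrin at the release site. Its levels were 268, 228, 245 and 272 CPM in control and 223, 177, 212 and 226 CPM in obese libraries, in numbered order. Treated libraries 1 to 3 had 195, 207 and 191 CPM. All 4 obese and all 3 treated libraries lay below the lowest control library. The diet difference nevertheless missed the threshold in edgeR (log2 fold change -0.27, SE 0.11, adjusted p = 0.0781). DESeq2 called it, with a log2 fold change of -0.31 and an adjusted p of 0.0246. An antisense gene inside Trdn, D830005E20Rik, held 50.8% as many counts as Trdn itself, and the sources used here do not give whether counting used strand.

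Asph (ENSMUSG00000028207, chr4:9448069-9669344, minus strand) carries junctin, a partner of triadin, together with the aspartyl hydroxylase that shares its locus, and counts per gene cannot separate these products. It measured 139, 127, 134 and 155 CPM in control, 145, 135, 152 and 167 CPM in obese, and 133, 157 and 154 CPM in treated libraries. The 3 groups overlapped. The diet difference of Asph was 0.11 (95% confidence interval -0.12 to 0.35, edgeR adjusted p = 0.452).

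Sri (ENSMUSG00000003161, chr5:8046078-8069379, plus strand) encodes sorcin, a calcium-binding protein that dampens the ryanodine receptor. The control libraries 1 to 4 had 29.0, 27.1, 26.9 and 30.7 CPM. The obese libraries 1 to 4 had 19.4, 20.3, 25.5 and 23.6 CPM, and the treated libraries 1 to 3 lay close together at 21.3, 21.5 and 21.5 CPM. No obese or treated library reached the lowest control library. Sri fell from 28.4 ± 1.80 CPM (SD, n = 4) to 22.2 ± 2.83 (SD, n = 4) with the diet, 1.28-fold (log2 fold change -0.36, SE 0.10, edgeR adjusted p = 0.0194). This call was lost without control 4 (adjusted p = 0.0541), obese 1 (0.0603) or obese 2 (0.0547), and under upper-quartile scaling (0.0558), all in edgeR.

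Neither transcript of the calcium-binding proteins in the store passed the test. Casq2 (ENSMUSG00000027861, chr3:102086415-102146514, plus strand), the gene of cardiac calsequestrin, had 442, 253, 354 and 445 CPM in control libraries 1 to 4. It had 356, 328, 348 and 445 CPM in obese and 368, 464 and 366 CPM in treated libraries. The lowest library of all was control 2 and the highest treated 2. Its diet difference was -0.02 (95% confidence interval -0.40 to 0.37, edgeR adjusted p = 0.952), an interval that is wide against the 1.28-fold change of Sri.

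Hrc (ENSMUSG00000038239, chr7:45335290-45338974, plus strand) encodes the histidine-rich calcium-binding protein. It measured 667, 493, 642 and 575 CPM in control, 535, 373, 402 and 583 CPM in obese, and 594, 529 and 377 CPM in treated libraries. Obese 2 and obese 3 lay below all control libraries, and the other 2 lay among them. The diet difference of Hrc was -0.33 (95% confidence interval -0.72 to 0.06, edgeR adjusted p = 0.182).

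At the cell surface, the 2 members pointed in opposite directions without either passing the test. Cacna1c (ENSMUSG00000051331, chr6:118587240-119196418, minus strand), the pore of the cardiac L-type calcium channel, had 561, 667, 618 and 580 CPM in control libraries 1 to 4. Obese libraries had 946, 662, 632 and 797 CPM, and treated libraries 859, 592 and 639. Obese 1 and treated 1 were the highest libraries, and the groups overlapped. The diet difference was 0.32 (95% confidence interval -0.02 to 0.67, edgeR adjusted p = 0.139).

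Slc8a1 (ENSMUSG00000054640, chr17:81373105-81738377, minus strand), the sodium-calcium exchanger, had 736, 487, 613 and 936 CPM in control libraries 1 to 4. Obese libraries had 511, 418, 600 and 644 CPM, and treated libraries 475, 678 and 652. The control libraries alone spanned most of this range. The diet difference of Slc8a1 was -0.35 (95% confidence interval -0.79 to 0.09, edgeR adjusted p = 0.205).

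In the comparison of obese with control hearts, then, 3 of 10 members fell, 0 rose and 7 did not pass. Over all genes tested, 30.1% were called in either direction, 14.4% higher and 15.7% lower, so the members were called about as often as genes at large. Upper-quartile scaling moved the median log2 fold change of all genes by 0.10 and turned the split of all calls from 3429 higher and 3737 lower to 4378 higher and 2926 lower. The members' median log2 fold change was -0.30, beside 0.11 over all genes. Of the 10 members, 2 had groups that did not overlap, both lower, against 28.5% of all genes in either direction.

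**Figure D3:**
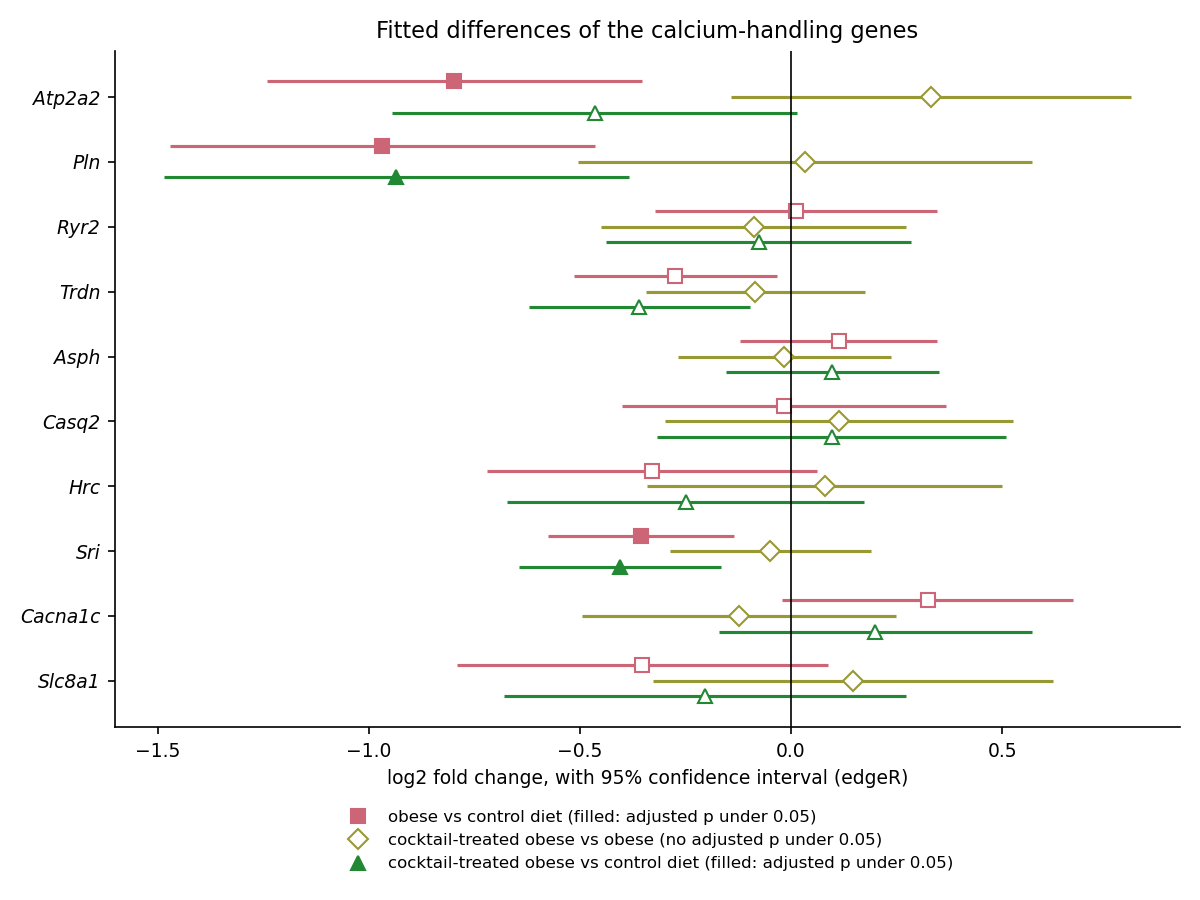
Fitted log2 fold changes (horizontal axis) of the 10 genes with 95% confidence intervals from edgeR, for obese against control diet (squares), cocktail-treated obese against obese (diamonds) and cocktail-treated obese against control diet (triangles); filled symbols passed an adjusted p of 0.05. Atp2a2 at -0.80, Pln at -0.97 and Sri at -0.36 are the filled squares, and no diamond is filled.

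Obese hearts with and without the cocktail were compared to ask whether the drugs shifted these genes. No member passed the test in edgeR: 0 of 10 were called and 0 of 10 had an unadjusted p under 0.05. DESeq2 and limma voom also called 0 members. Over all genes edgeR called 0%, with 2425 genes at an unadjusted p under 0.05, while DESeq2 called 51 genes higher and 80 lower. The fitted differences of the members ran from -0.12 for Cacna1c to 0.33 for Atp2a2, with a median of 0.01 beside -0.01 over all genes. The groups of all 10 members overlapped, against 10.1% of all genes whose groups did not.

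The widths of these intervals set what the cocktail comparison could show. Atp2a2 averaged 7954 ± 726 CPM (SD, n = 3) in treated hearts against 6319 in obese hearts, a difference of 0.33 with a 95% confidence interval of -0.14 to 0.81. Pln averaged 1913 ± 492 CPM (SD, n = 3) against 1870, a difference of 0.03 with an interval of -0.51 to 0.57. For Sri the difference was -0.05 (95% confidence interval -0.29 to 0.19). The differences of the other 7 members lay between -0.12 and 0.15.

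Treated hearts were also set against control-diet hearts, a comparison that shares libraries with both others. Pln and Sri fell, 2 of 10 members, and 0 rose, against 15.8% of all genes called, 7.43% higher and 8.39% lower. Pln was 1.91-fold lower (edgeR log2 fold change -0.94, SE 0.26, adjusted p = 0.0285), with every treated library below every control library. Sri was 1.32-fold lower (edgeR log2 fold change -0.41, SE 0.11, adjusted p = 0.0286), also without overlap. Atp2a2 did not pass (log2 fold change -0.47, 95% confidence interval -0.95 to 0.02, edgeR adjusted p = 0.169), and neither did Trdn (log2 fold change -0.36, SE 0.12, edgeR adjusted p = 0.0604), whose groups did not overlap. Trdn was called lower by DESeq2 (adjusted p = 0.0149) and by limma voom (adjusted p = 0.0491). The groups of 3 members did not overlap, all lower, against 27.9% of all genes. The members' median was -0.23, beside 0.05 over all genes.

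Both calls were lost in several refits that left out 1 library. Calls over all genes fell in these refits too, from 1766 higher and 1994 lower to 459 and 552 without treated 3. Over all refits without 1 library, the log2 fold change lay between -1.11 and -0.74 for Pln and between -0.45 and -0.37 for Sri. The Pln call was lost without control 1, control 3, control 4, treated 1 or treated 3, with edgeR adjusted p-values of 0.0706, 0.0542, 0.0769, 0.0560 and 0.131 in that order. The Sri call was lost without control 1, control 4 or any 1 treated library, with adjusted p-values of up to 0.104 in edgeR. Without obese 3, treated 2 and treated 3, which leaves 1 treated library whose spread is taken from the other groups, Pln stood at -0.82 and Sri at -0.41.

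Ratios of 2 genes within a library need no scaling of library size. For each of 6 ratios the groups were compared by a 2-sided exact permutation test on log2 ratios, 18 tests in all, of which 4 against 4 libraries can give no p below 0.0286 and 4 against 3 none below 0.0571. With these smallest p-values no ratio could pass 0.05 after adjustment over the 18 tests, so the adjusted values decide nothing. The ratios of Atp2a2 and of Pln to Ryr2 were added after the data had been seen.

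The ratio of Atp2a2 to Ryr2 sets the pump beside the release channel. It was 3.10, 2.12, 2.47 and 2.85 in control libraries 1 to 4. It was 1.48, 1.38, 1.56 and 1.59 in obese and 1.77, 2.27 and 2.06 in treated libraries. Obese libraries lay below all control and all treated libraries, while treated and control libraries overlapped. The obese ratio was 0.80 lower on the log2 scale than the control ratio (difference -0.80, exact permutation p = 0.0286, adjusted p = 0.171). The mean log2 ratio of treated libraries was 0.43 above that of obese libraries (exact permutation p = 0.0571, adjusted p = 0.171).

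Phospholamban was read in the same way. Its ratio to Ryr2 was 0.673 to 0.997 in control, 0.365 to 0.519 in obese and 0.371 to 0.599 in treated libraries. The diet difference was -0.96 (exact permutation p = 0.0286, adjusted p = 0.171), and treated against obese it was 0.10 (exact permutation p = 0.686). The ratio of Pln to Atp2a2 was narrow in control libraries, at 0.322, 0.317, 0.343 and 0.346. It was 0.274, 0.364, 0.234 and 0.327 in obese libraries, and 0.275, 0.264 and 0.180 in treated libraries. Obese libraries thus lay on both sides of the control range, whereas all 3 treated libraries lay below it (treated minus control -0.49, exact permutation p = 0.0571, adjusted p = 0.171).

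The ratio of Slc8a1 to Atp2a2 sets the exchanger beside the pump, the main routes by which calcium leaves the cytosol. It was 0.0577, 0.0630, 0.0576 and 0.0732 in control libraries and 0.0772, 0.0956, 0.0940 and 0.0815 in obese libraries. Treated libraries had 0.0634, 0.0772 and 0.0860. All obese libraries lay above all control libraries, and treated libraries overlapped both. The mean log2 ratio of obese libraries was 0.47 above that of control libraries (exact permutation p = 0.0286, adjusted p = 0.171). The ratio of Casq2 to Ryr2 differed by 0.01 with the diet (exact permutation p = 0.971), and that of Cacna1c to Ryr2 by 0.31 (exact permutation p = 0.143).

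**Figure D4:**
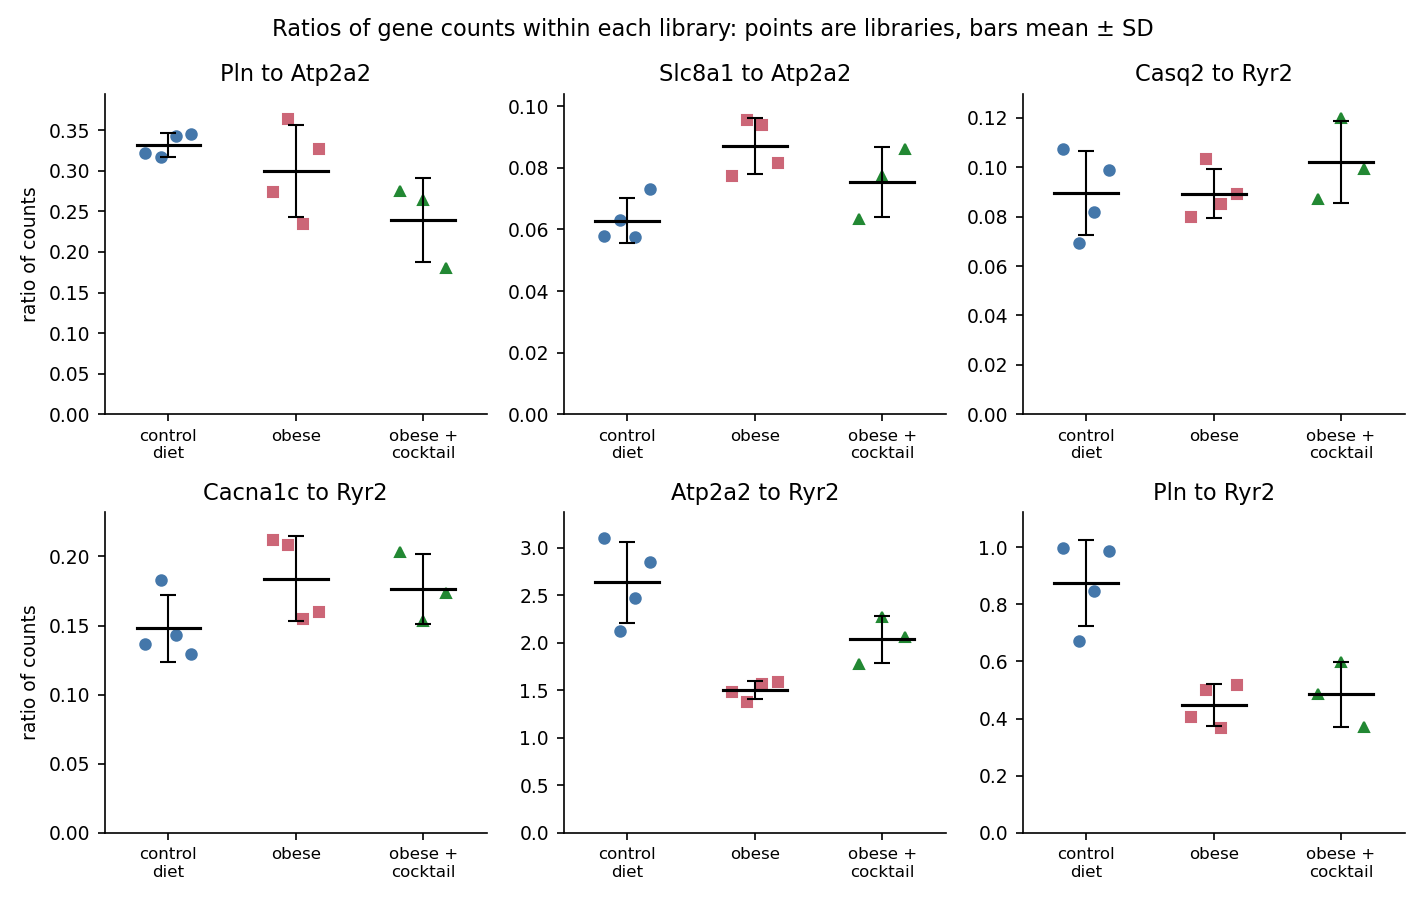
Each panel plots the ratio of the counts of 2 genes (vertical axis, from 0, no unit) by group (control diet, 4 libraries; obese, 4; obese with cocktail, 3); points are libraries, horizontal bars means and whiskers the SD. The Atp2a2 to Ryr2 ratio of obese libraries, 1.38 to 1.59, lies below that of every control and treated library, and the Casq2 to Ryr2 groups cover each other.

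Levels of different genes were compared per kilobase of merged exon, as CPM per kb in control hearts. Atp2a2 stood highest at 1806 ± 392 (SD, n = 4), followed by Pln at 1326 ± 314, Hrc at 232 ± 30.2, Ryr2 at 144 ± 12.8 and Casq2 at 136 ± 33.2. Slc8a1 at 36.9 ± 10.2, Cacna1c at 28.6 ± 2.21, Trdn at 27.1 ± 2.19, Asph at 8.60 ± 0.742 and Sri at 5.86 ± 0.370 completed the order. Neighbours whose library ranges overlapped were Atp2a2 and Pln, Ryr2 and Casq2, Slc8a1 and Cacna1c, and Cacna1c and Trdn. In obese hearts the order was the same except that Cacna1c stood above Slc8a1, and in treated hearts Casq2 also stood above Ryr2. The most abundant member exceeded the least by 308-fold in control, 227-fold in obese and 296-fold in treated hearts. Merged exon length counts all annotated exons, so a gene whose main transcript is shorter is understated.

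Many members shared their highest and lowest libraries within a group. Control 4 was the highest control library for 8 of the 10 members and control 2 the lowest for 8. Obese 4 was the highest obese library for 8 and obese 2 the lowest for 7. Treated 2 was the highest treated library for 7. The exceptions included Cacna1c, which was highest of the control libraries in control 2.

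By Pearson's r of log2 CPM over the 11 libraries, among 7798 genes of at least 10 CPM, the patterns closest to Pln were those of 3 enzymes of mitochondria and peroxisomes. Suclg2, a subunit of succinyl-CoA ligase, had r = 0.994, Hsd17b4, of peroxisomal fatty acid oxidation, r = 0.989, and Hadh, of mitochondrial fatty acid oxidation, r = 0.987. Closest to Atp2a2 were Apobec2, a muscle member of the cytidine deaminase family, at r = 0.987, the sarcoglycan gene Sgcb at r = 0.984 and the cytosolic malate dehydrogenase Mdh1 at r = 0.982. Pln and Atp2a2 had r = 0.865 with each other, which placed Atp2a2 at rank 1323 by likeness to Pln. Hadh went from 350.0 CPM in control to 188 in obese and 197 in treated hearts, and Mdh1 from 1002 to 617 and 708 CPM. These genes were picked for their likeness, and the libraries share differences of group and depth, so r is a description.

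Transcripts that overlap the members were read as well. The set was the 16 annotated genes that overlap a member and average at least 1 CPM, drawn up after the counts had been seen. It included Cep85l and Dcp1b, protein-coding genes of the opposite strand that extend beyond Pln and Cacna1c. Of this pair, Dcp1b rose with the diet (log2 fold change 0.94, edgeR adjusted p = 0.00285). Of these 16, 7 rose and 0 fell with the diet in edgeR, against 14.4% higher and 15.7% lower of all genes tested. Of the 9 among them annotated as sense-intronic or TEC, 4 rose, while among all 2093 such genes tested 585 rose and 16 fell. In the introns of Ryr2, the TEC locus Gm47493 (chr13:12047342-12052055) had 41.2, 108, 56.9 and 43.7 CPM in control libraries and 212, 104, 141 and 251 CPM in obese libraries. Treated libraries had 146, 73.2 and 127 CPM. Obese libraries were high except obese 2, which lay just under control 2, and the diet difference was 1.502 (SE 0.38, edgeR adjusted p = 0.0136). Ryr2 itself, over the same libraries, differed by 0.01.

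Other such loci rose in Atp2a2, Casq2 and Cacna1c. Gm43359, a TEC locus inside Atp2a2, went from 84.2 ± 24.0 to 125 ± 26.0 CPM (SD, n = 4 each; log2 fold change 0.57, edgeR adjusted p = 0.0448) while Atp2a2 fell. The sense-intronic 4632404M16Rik inside Casq2 went from 13.3 ± 2.97 to 20.2 ± 4.08 CPM (SD, n = 4 each; log2 fold change 0.61, edgeR adjusted p = 0.0236). In Cacna1c, the processed pseudogene Gm18981 went from 3.13 ± 1.17 to 12.05 ± 3.15 CPM (SD, n = 4 each; log2 fold change 1.95, edgeR adjusted p = 0.000590). Across Pln, Gm47644 on the opposite strand shares 1644 exon bases with Pln and held 7.61% as many counts, and it had a diet difference of -0.26 (edgeR adjusted p = 0.542).

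The wider calcium machinery was read from 109 other genes in 9 roles. With the obesogenic diet 7 rose and 38 fell, 41.3% called against 30.1% of all genes and 34.9% lower against 15.7%, with a median of -0.11 beside 0.11. The share of all genes called depended on the filter on low counts. With at least 1 CPM in 3 libraries, 11 rose and 36 fell of 109, against 3308 higher and 3372 lower of 16491 genes. Under that filter the 109 were called in either direction about as often as all genes, while their share of falls stayed higher. Treated against control, 10 rose and 17 fell, 24.8% called against 15.8% of all genes. With at least 1 CPM in 3 libraries, 11 rose and 19 fell, against 1760 higher and 1944 lower of 16491 genes. The gap to all genes in the share called was narrower there. The count of 27 under the main filter dropped to 11, 15 or 11 without control 1, 3 or 4, and to 2 without treated 3. Calls over all genes dropped too, from 1766 higher and 1994 lower. They were 821 and 1036, 1085 and 1388, and 783 and 1033 without control 1, 3 and 4. Without treated 3 they were 459 and 552. Without obese 3, treated 2 and treated 3, 1 treated library was left, and the median of the 109 was -0.16, beside 0.04 over all genes. Treated against obese, edgeR called 0 of 109, with 7 at an unadjusted p under 0.05, and DESeq2 and limma voom called 0. With the intronic share as a covariate edgeR called 0 of 109 in the diet comparison, with 14 at an unadjusted p under 0.05.

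Among 7 genes of uptake and its small regulatory proteins, 1 fell. Arln, which encodes a micropeptide that binds SERCA pumps, fell from 4.23 ± 1.30 to 2.17 ± 0.324 CPM (SD, n = 4 each; log2 fold change -0.96, edgeR adjusted p = 0.0101). Atp2a3, another SERCA pump, went from 22.6 to 17.3 CPM and just missed the threshold (log2 fold change -0.39, edgeR adjusted p = 0.0506). Strit1, whose micropeptide displaces phospholamban from the pump, stood at 1.98 and 2.11 CPM, and Mrln, of skeletal muscle, at 0.249 and 0.310 CPM. Sarcolipin, Sln, the atrial inhibitor of the pump, had 0 to 2.95 CPM in control libraries. It had 0.188, 4.53, 128 and 12.6 CPM in obese libraries 1 to 4 and 0.665, 260.1 and 274 CPM in treated libraries 1 to 3. Its high libraries were the 3 in which the atrial markers, Sln among them, were high, and no comparison of Sln passed in edgeR (adjusted p = 0.122 with the diet).

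Of 18 genes of the release unit and the dyad, the junction of surface membrane and store, 7 fell and 2 rose. Tmem38b, a cation channel of the reticulum, fell from 27.6 ± 3.76 to 13.7 ± 2.79 CPM (SD, n = 4 each; log2 fold change -1.01, edgeR adjusted p = 0.000710). Jph1, which encodes a junctophilin that bridges the 2 membranes, fell from 29.5 ± 0.741 to 16.3 ± 2.97 CPM (SD, n = 4 each; log2 fold change -0.85, edgeR adjusted p = 0.00101). The cardiac junctophilin Jph2 stood at 301 and 306 CPM (log2 fold change 0.02, edgeR adjusted p = 0.932). Fkbp1b, whose protein binds the cardiac ryanodine receptor, stood at 0.363 and 0.423 CPM, too low to carry a comparison. In the reticulum lumen 2 of 6 fell, the chaperones Canx, from 259.7 to 163 CPM (log2 fold change -0.68, edgeR adjusted p = 0.00437), and Hspa5, from 226 to 138 CPM (log2 fold change -0.71, edgeR adjusted p = 0.0196). The Hspa5 call was lost without obese 3, treated 2 and treated 3 (edgeR adjusted p = 0.0621).

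Of 17 genes of surface calcium channels, 2 rose and 1 fell. Cacna1g, a T-type calcium channel, had 16.7, 9.94, 14.7 and 11.4 CPM in control and 27.3, 60.6, 58.8 and 36.2 CPM in obese libraries. Treated libraries had 22.8, 48.9 and 55.5 CPM. Obese and treated libraries all lay above the control libraries, and the diet difference was 1.79 (SE 0.33, edgeR adjusted p = 0.00297). Cacnb4, a channel subunit, rose from 2.59 ± 0.365 to 4.46 ± 0.793 CPM (SD, n = 4 each; log2 fold change 0.78, edgeR adjusted p = 0.00861). Cacnb2, the main cardiac subunit, stood at 103 and 111 CPM in control and obese hearts (edgeR adjusted p = 0.706) and at 74.2 ± 5.19 CPM (SD, n = 3) in treated hearts, where all 3 libraries lay below the control libraries (log2 fold change -0.48, edgeR adjusted p = 0.123).

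Among 10 genes of extrusion and the sodium pump, 3 fell and 1 rose. The calcium pump Atp2b2 rose from 0.639 to 2.63 CPM (log2 fold change 2.02, edgeR adjusted p = 0.0262). Its obese libraries 1 to 4 had 0.925, 2.59, 5.26 and 1.73 CPM and its treated libraries 1 to 3 had 1.36, 6.23 and 4.44 CPM. The highest 3 were obese 3, treated 2 and treated 3, where atrial markers were high, and without them, a check of single genes chosen after seeing the data, the diet difference was 1.44 (edgeR adjusted p = 0.0317). Of 9 mitochondrial calcium genes 3 fell, among them Mcur1, a regulator of the uniporter, from 84.8 to 51.9 CPM (log2 fold change -0.71, edgeR adjusted p = 0.00180), and its gatekeeper Micu2, from 37.2 to 22.8 CPM (log2 fold change -0.71, edgeR adjusted p = 0.00224).

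Among 25 regulators of the pump and the channels, 12 fell and 1 rose. Pde3a, a phosphodiesterase that degrades cyclic AMP, had 312, 202, 259 and 320.2 CPM in control and 131, 81.9, 107 and 126 CPM in obese libraries. Treated libraries had 152, 156 and 135 CPM. The 3 groups did not overlap, treated libraries lying between the others, and the diet difference was -1.29 (SE 0.17, edgeR adjusted p = 0.000372). Treated against obese, Pde3a differed by 0.40 and did not pass (edgeR adjusted p = 0.488). Ppp1ca, a catalytic subunit of protein phosphatase 1, which removes phosphate from phospholamban, fell from 119 to 59.7 CPM (log2 fold change -0.99, edgeR adjusted p = 0.000445). Ppp1ca stood at 79.2 CPM in treated hearts, above all obese libraries, and did not pass against them (log2 fold change 0.41, edgeR adjusted p = 0.417). Treated and obese libraries were apart in this way, in either direction, for 10.1% of all genes. Camk2d, the main cardiac calcium-calmodulin kinase, stood at 176 and 170.0 CPM (log2 fold change -0.05, edgeR adjusted p = 0.750).

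Of 10 calcineurin and NFAT genes 4 fell and 1 rose. Ppp3r1, the regulatory subunit of calcineurin, fell from 58.9 to 35.4 CPM (log2 fold change -0.73, edgeR adjusted p = 0.00145), and Rcan2, which encodes a calcineurin regulator, fell from 369 to 189 CPM (log2 fold change -0.96, edgeR adjusted p = 0.00149). Of 7 genes of the myofilament's calcium response 5 fell, including Tnnc1, the calcium sensor troponin C, from 576 to 360.3 CPM (log2 fold change -0.68, edgeR adjusted p = 0.0108), and the tropomyosin gene Tpm1, from 1643 to 1065 CPM (log2 fold change -0.63, edgeR adjusted p = 0.0117).

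**Figure D5:**
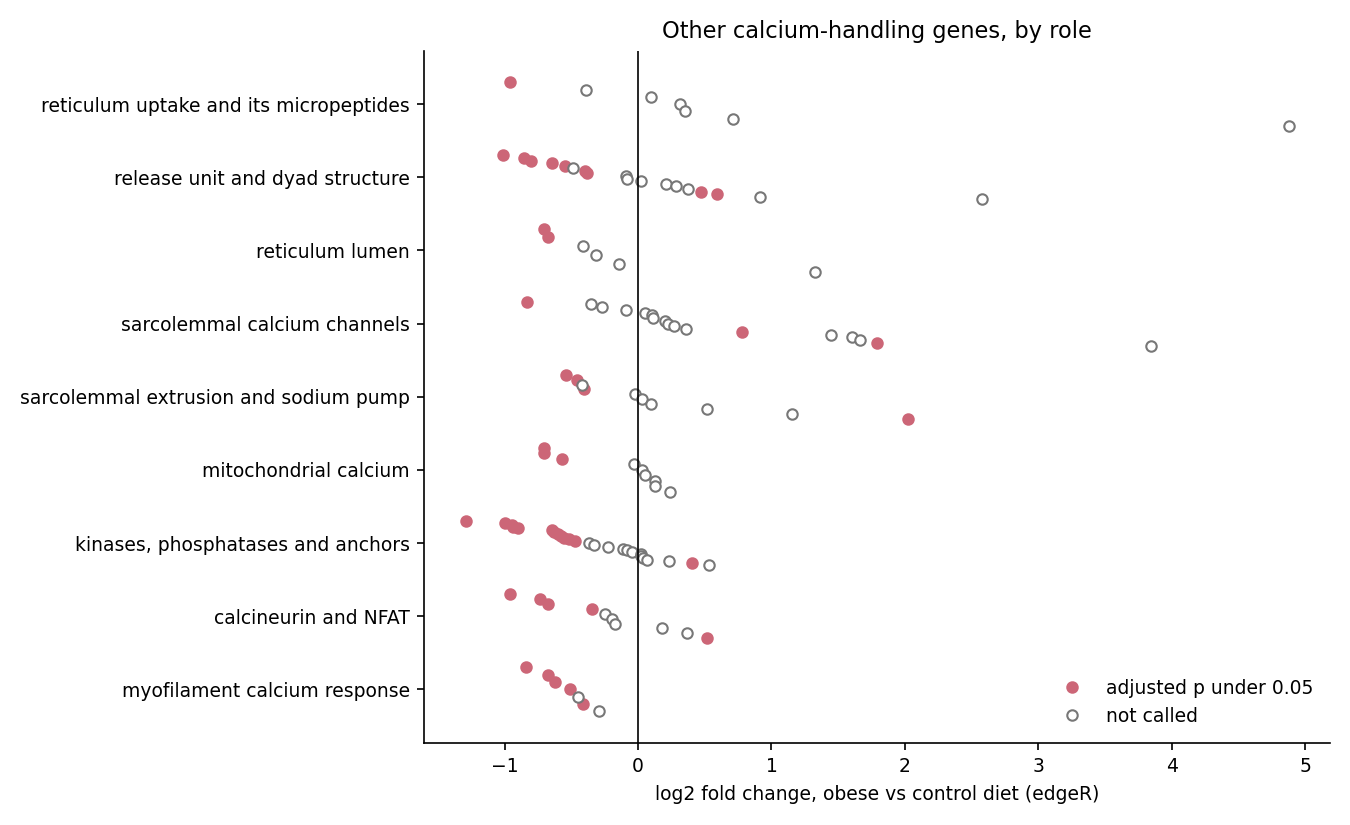
Fitted log2 fold changes of obese against control diet (horizontal axis, edgeR) for 109 other calcium-handling genes, 1 row of points per role; filled points passed an adjusted p of 0.05. Filled points lie mostly left of 0, 38 of 45, and the surface channels are the role where 2 of 3 filled points lie to the right.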

How the data were processed

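RNA from 11 hearts or heart samples was sequenced, and the authors deposited 1 table of whole-number counts per Ensembl mouse gene, in no other unit. Per the submitters' processing notes, cutadapt, HISAT2, StringTie and GRCm38 were used. The sources used here do not give versions, annotation, strand use, or whether the counts are reads or estimates from coverage. Symbols and positions came from a GENCODE annotation of GRCm38, which held 55227 of 55487 identifiers.

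A single edgeR 4.0.16 model held all 3 groups (R 4.3.3, TMM, filterByExpr with a minimum count of 10 and total of 15, robust quasi-likelihood test), which tested 23779 genes. P-values were adjusted by Benjamini-Hochberg over all genes per comparison, with a threshold of 0.05. A standard error is the log2 fold change over the root of F. The log2 CPM used a prior count of 1. The procedure was tested on simulated data. No libraries were duplicates. Same-numbered libraries were not treated as pairs.

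The members and the lists of other calcium genes and markers were chosen with earlier results of these data known. Beyond the members, the text names Sln, Strit1, Mrln, Fkbp1b, Jph2, Cacnb2 and Camk2d, the 2 genes of each role with the smallest p in the diet comparison at a mean of at least 1 CPM, and the 3 genes most correlated with Pln and with Atp2a2 at a mean of at least 10 CPM and with a symbol that is no predicted-gene name. A gene that this rule takes is not reported here. Alternatives were other scalings, filters and gene sets, DESeq2 1.42.0, limma 3.58.1 (voom), separate fits, a replicate block, the intronic share as a covariate, and leaving out libraries.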

Additional observations from a re-analysis of the deposited data

How the results depend on the processing

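For the 10 members and 3 comparisons, 605 of 690 alternative values kept their direction and their side of the threshold, 21 lost a call, 8 gained one and 56 changed sign, 1 of which had been called and 0 of which passed under the alternative. Counts of calls are from edgeR unless named.

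With the intronic share as a covariate, the number of members called went from 3 to 0 with the diet and from 2 to 1 treated against control, where Casq2 rose (log2 fold change 0.64, adjusted p = 0.0443), and the other calcium genes called went to 0 in both. Members that changed sign with it were, for the diet, Pln (0.10), Casq2 (0.86), Hrc (0.13) and Slc8a1 (0.36), treated against obese, Pln (-0.38), Casq2 (-0.22), Hrc (-0.10) and Slc8a1 (-0.12), and treated against control, Ryr2 (0.072), Hrc (0.035) and Slc8a1 (0.24). The cause was not tested.

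Without obese 3, treated 2 and treated 3, 1 treated library was left. The members' median treated against control was then -0.21, beside 0.04 over all genes. Signs changed treated against obese for Ryr2 (0.015), Casq2 (-0.025), Sri (0.023), Cacna1c (0.11) and Slc8a1 (-0.14), treated against control for Ryr2 (0.039), Asph (-0.044), Casq2 (-0.011) and Hrc (0.0095), and for the diet for Casq2 (0.014). The ratio of Casq2 to Ryr2 changed sign to -0.053 against obese and -0.020 against control, and that of Cacna1c to Ryr2 to 0.083 against obese.

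A replicate block called 1 member, Pln, treated against control, in place of 2, and changed the sign of Ryr2 with the diet (-0.0016) and of Asph treated against obese (0.043). Same-numbered libraries had correlations from -0.45 to 0.64, and libraries with different numbers from -0.53 to 0.36. These ranges do not settle whether the numbers mark pairs. Other sign changes were Ryr2 with the diet under RLE scaling (-0.024), no filter (-0.0021), DESeq2 (-0.024) and voom (-0.0033). Casq2 changed sign with the diet under upper-quartile scaling (0.096), a filter of 1 CPM in 3 libraries (0.037), voom (0.0077), a fit of only the groups compared (0.0048) and protein-coding genes only (0.094). Pln treated against obese stood at -0.0086 under upper-quartile scaling and at -0.0089 with protein-coding genes only.

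Leaving out each library in turn gave 2 to 4 members called with the diet, 0 to 4 treated against control and 0 treated against obese. Other calcium genes called ranged from 32 to 53 with the diet and from 2 to 37 treated against control. Over all genes, diet calls were fewest without control 4, at 2117 higher and 2800 lower. Those treated against control were fewest without treated 3, at 459 higher and 552 lower. Among values that changed sign, the diet range was -0.10 to 0.12 for Ryr2 and -0.19 to 0.066 for Casq2. Treated against obese it was -0.13 to 0.23 for Pln, -0.20 to 0.0082 for Ryr2, -0.063 to 0.056 for Asph, -0.0081 to 0.22 for Casq2, -0.062 to 0.25 for Hrc and -0.11 to 0.024 for Sri. Treated against control it was -0.072 to 0.18 for Casq2. Ratios that changed sign were Casq2 to Ryr2 with the diet (-0.10 to 0.11), Cacna1c to Ryr2 (-0.16 to 0.047) and Pln to Ryr2 (-0.062 to 0.28), both treated against obese. The alternatives for the added ratios were chosen after seeing the data. Upper-quartile scaling called 2 members with the diet, and DESeq2 4.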

Other observations

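Some other channel genes were high in the libraries with high atrial markers, and they were picked after their values were seen. Cacna1h, a T-type calcium channel, had 13.2 to 24.4 CPM in control libraries, 126 CPM in obese 3, 151 CPM in treated 2 and 174 CPM in treated 3, and at most 37.0 CPM in the other obese and treated libraries. Ryr3, a ryanodine receptor that is minor in heart muscle, had 1.03 to 1.87 CPM in control libraries, 26.6 CPM in obese 3 and 31.9 CPM in treated 3, but 8.26 CPM in treated 2. With all libraries, the diet difference passed in edgeR for neither Cacna1h (log2 fold change 1.67, adjusted p = 0.119) nor Ryr3 (log2 fold change 2.58, adjusted p = 0.0973). Without obese 3, treated 2 and treated 3 it was smaller, at 0.84 for Cacna1h and 1.16 for Ryr3, and each then passed in edgeR. The part of atrial tissue in these values was not tested.

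D830005E20Rik, the antisense gene inside Trdn, had 113 ± 21.4 CPM in control and 125 ± 42.6 CPM in obese hearts (SD, n = 4 each; log2 fold change 0.15, edgeR adjusted p = 0.615), beside the 253 and 209 CPM of Trdn.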
